A study of Sus scrofa with 6 samples.

Results

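CDH1, EPCAM, CLDN4 and SPINT2, genes of epithelial adhesion and of the cell surface, were set against KRT8 and KRT18, the keratin pair of simple epithelia, in pig fibroblasts and in the induced pluripotent stem cells (piPSCs) made from them. These 6 genes, of 25322 gene IDs in the deposited table, were picked by symbol with their values in view: the 4 adhesion and surface genes had differed between early and later piPSCs and the keratin pair had not. The split is therefore a description of the values and none of it was tested. All 6 had a row and passed the filter used for counting, an FPKM of 1 or more in any group (fragments scaled to gene length and library size, so that levels of different genes are on a per-length scale).

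RNA was sequenced from cells of the Small Xiang Pig, with 6 libraries in 3 groups of 2. The groups were PEF, the progenitor fibroblasts, at passage 5; P5, piPSCs at passage 5 described as Rex1+; and P10, piPSCs at passage 10 described as Rex1-. Rex1 marks undifferentiated pluripotent cells, and Rex1 state and passage differ together between P5 and P10 and cannot be told apart. How many animals or piPSC lines the libraries came from, and which reprogramming factors the cells carried, were not given in the sources used here.

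The table held 1 value per gene and group, so no value has an SD or an n, no difference has a replicate check, and no p-value was computed. The depth is unknown. The FPKM columns of PEF, P5 and P10 summed to 821130, 628992 and 826083, and genes of the mitochondrial genome took 15.7%, 19.1% and 31.1% of them. Fibroblast markers were highest in PEF: all 14 compared were lower by at least 1 on the log2(FPKM + 1) scale in P5 and in P10. Over all genes compared, 19.6% were lower in P5 and 19.3% in P10. Of the pluripotency markers, LIN28A was at an FPKM of 0.325 in PEF, 299 in P5 and 204 in P10. Whether introduced copies add to LIN28A was not tested. POU5F1, SOX2, NANOG and ZFP42, the gene of Rex1, are not analysed here, so the Rex1 state of the piPSCs was not checked.

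E-cadherin, the product of CDH1, joins neighbouring epithelial cells at adherens junctions and is tied to actin through catenins. EPCAM is a surface glycoprotein of epithelial and pluripotent cells, CLDN4 a claudin of tight junctions, and SPINT2 a Kunitz-type inhibitor of membrane-bound serine proteases such as matriptase. Keratins 8 and 18, a type II and a type I keratin, polymerise with each other into the intermediate filaments of simple epithelia and of early embryonic epithelium, and these filaments are anchored at desmosomes. Reprogramming of fibroblasts passes through a mesenchymal-to-epithelial transition, in which E-cadherin is gained.

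CDH1 (ENSSSCG00000025652, bases 35226 to 45106 of a scaffold not placed on a chromosome of susScr3, the build named in the submitters' processing notes) was at an FPKM of 0.103 in PEF, 48.7 in P5 and 7.89 in P10. Its level was highest in P5, and the P10 level was 16.2% of the P5 level while still 76.6-fold that of PEF. EPCAM (ENSSSCG00000008429, chromosome 3, 99312714 to 99328503) followed the same order, with an FPKM of 0.227 in PEF, 41.6 in P5 and 6.07 in P10. Its P10 level was 14.6% of the P5 level. Whether the table counts starts from 0 or from 1 was not given in the sources used here.

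CLDN4 (ENSSSCG00000007718, chromosome 3, 10776891 to 10780656) was at an FPKM of 0.205 in PEF, 38.0 in P5 and 1.79 in P10, so that 4.72% of the P5 level was left in P10. SPINT2 (ENSSSCG00000002954, chromosome 6, 42701292 to 42710420) was at an FPKM of 1.03 in PEF, 37.9 in P5 and 0.535 in P10. SPINT2 differed most between the piPSC groups, with a P10 level of 1.41% of that in P5, a 70.9-fold gap. It was also the member whose FPKM was lower in P10 than in the fibroblasts. The 4 genes were close to each other in P5, between 37.9 and 48.7, and spread out in P10 in the order CDH1, EPCAM, CLDN4 and SPINT2. With no spread between libraries, whether neighbours in this order differ cannot be judged.

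KRT8 (ENSSSCG00000000252, chromosome 5, 18663338 to 18671193) was at an FPKM of 5.46 in PEF, 630 in P5 and 727 in P10. KRT18 (ENSSSCG00000000253, chromosome 5, 18725319 to 18729778) was at 3.82 in PEF, 749 in P5 and 606 in P10. Both keratins were thus more than 100-fold above the fibroblasts in each piPSC group, and the P10 level was 115% of the P5 level for KRT8 and 81.0% for KRT18. By FPKM they ranked 115 and 99 among all IDs in P5 and 101 and 122 in P10, while CDH1 went from rank 1537 to rank 6945 and SPINT2 from 2019 to 13599. KRT18 shares its locus with another ID, listed at 0 in every group. Keratin 8 and 18 genes have many processed copies in the human genome, and how reads that match such copies were divided in the pig was not given in the sources used here.

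**Figure D1:**
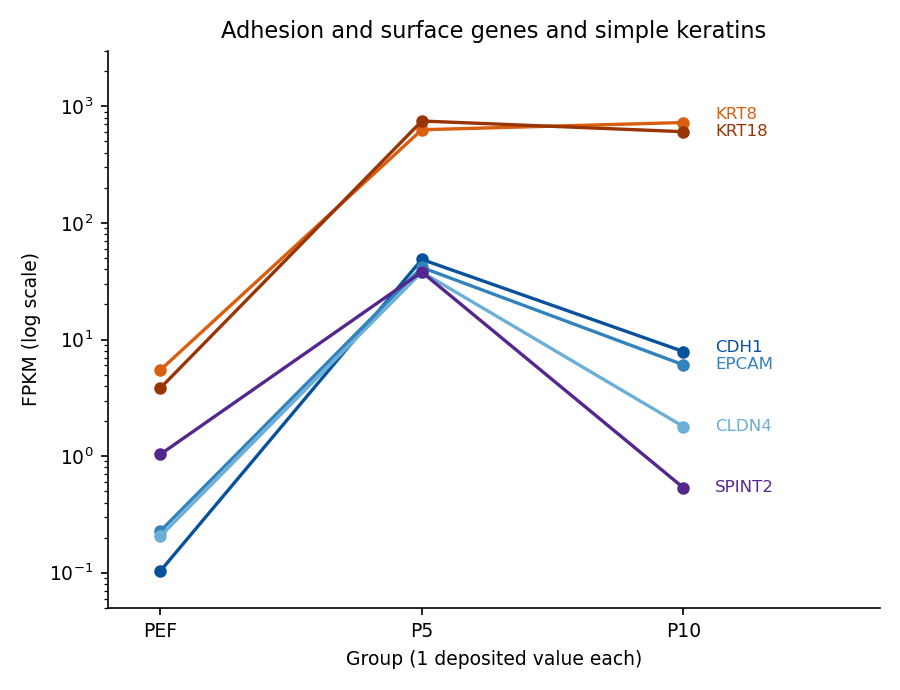
FPKM (log scale) of the 6 genes in PEF, P5 and P10, 1 deposited value per group, with lines joining the values of a gene. All 6 lines climb from PEF to P5; the keratins then stay between 606 and 749, while the 4 adhesion and surface genes end between 0.535 and 7.89 in P10.

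On the scale of log2(FPKM + 1), where a difference of 1 or more was counted, all 6 genes were higher in P5 than in PEF. The differences were 5.49 for CDH1, 5.12 for EPCAM, 5.02 for CLDN4, 4.26 for SPINT2, 6.61 for KRT8 and 7.28 for KRT18. Across the 13998 genes compared, 21.4% were higher and 19.6% lower in P5 by this rule, with a median difference of 0.09. The members were chosen from these columns, so nothing is read from their share.

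In P10 minus PEF, 5 of the 6 were higher, against 19.1% of all genes higher and 19.3% lower, with a median over all genes of 0.06. KRT8 and KRT18 differed by 6.82 and 6.98, CDH1 by 3.01, EPCAM by 2.53 and CLDN4 by 1.21. SPINT2 differed by -0.41 and was not counted. These differences of low genes shrink with a pseudocount of 5, to 1.34 for CDH1, 1.08 for EPCAM and 0.38 for CLDN4. CLDN4 was also under the limit, at 0.71, with quantile normalization. Both comparisons use the same PEF column.

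In P10 minus P5, the 4 adhesion and surface genes were lower and neither keratin was counted, against 8.48% of all genes lower and 7.57% higher, with a median over all genes of -0.05. CDH1 differed by -2.48, EPCAM by -2.59, CLDN4 by -3.80 and SPINT2 by -4.67, while KRT8 differed by 0.21 and KRT18 by -0.30. The mean difference was -3.39 for the adhesion genes and -0.05 for the keratins, a gap of -3.34. Over the pseudocounts and scalings tried, and with KRT8 alone in place of the pair, this gap ranged from -3.85 to -2.39. In bulk RNA, fewer cells of a type and less RNA per cell cannot be told apart.

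**Figure D2:**
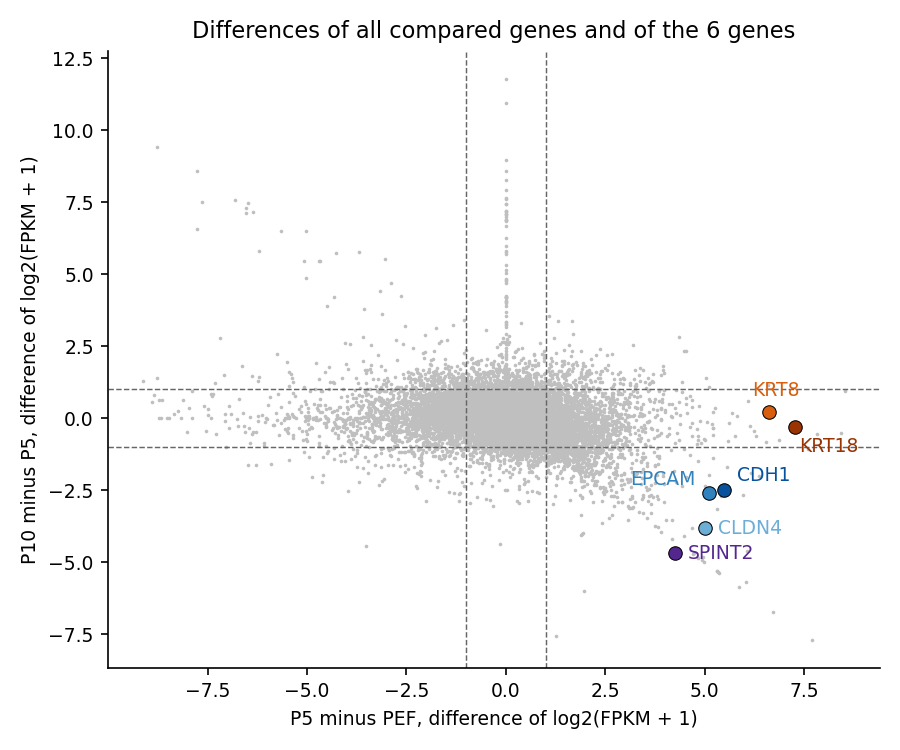
Each grey point is 1 of the 13998 compared genes, with its P5 minus PEF difference of log2(FPKM + 1) across and its P10 minus P5 difference upward; dashed lines mark -1 and 1, and the 6 genes are coloured and named. KRT8 and KRT18 sit at 0.21 and -0.30 on the vertical axis, and the 4 adhesion and surface genes between -4.67 and -2.48.

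A ratio of levels taken inside a group does not depend on how the columns are scaled. The summed FPKM of the 4 adhesion and surface genes was 1.57 in PEF, 166 in P5 and 16.3 in P10. That of the keratin pair was 9.28, 1379 and 1333. Relative to the keratin sum, the adhesion sum was therefore 0.169 in PEF, 0.120 in P5 and 0.0122 in P10. The ratio in P5 was 9.87-fold that in P10, and the ratio of the fibroblasts, in which all 6 genes were low, was closer to that of P5 than to that of P10. Relative to CDH1, the EPCAM level was 0.853 in P5 and 0.769 in P10, that of CLDN4 0.780 and 0.227, and that of SPINT2 0.779 and 0.0678. EPCAM thus kept its proportion to CDH1 more closely than CLDN4 or SPINT2 did. The ratio of KRT8 to KRT18 was 1.43 in PEF, 0.841 in P5 and 1.20 in P10, so the partners stayed near parity at all 3 levels of expression.

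The gap between the adhesion genes and the keratins in P5 minus PEF was -1.98, since the mean difference was 4.97 for the first and 6.95 for the second. This gap is a matter of the pseudocount, because 3 of the 4 adhesion and surface genes had an FPKM under 0.25 in PEF, where adding 1 shrinks a difference most. With a pseudocount of 0.1 it was -0.47. In P10 minus PEF the gap was -5.31.

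Genes with roles beside the members were then taken from lists chosen with earlier results of these data known. E-cadherin works with catenins, and no catenin was counted as lower in P10 than in P5. CTNNB1, the beta-catenin that binds the cadherin tail, was at an FPKM of 141 in PEF, 125 in P5 and 95.8 in P10. CTNNA1, the alpha-catenin that reaches actin, was at 183, 167 and 146, at a locus shared by 2 IDs. CTNND1, the p120 catenin that holds cadherins at the surface, was at 43.9, 25.8 and 27.0. The level of CDH1 relative to CTNNB1 was 0.391 in P5 and 0.0823 in P10. Of the 10 compared members of the cadherin and catenin list, 0 were lower in P10 than in P5 and 1, CTNNA2, was higher. Over all genes, 8.48% were lower and 7.57% higher, so these counts are near the background. CTNNA2, the neuronal alpha-catenin, was at 0.310 in PEF, 3.17 in P5 and 13.96 in P10.

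Among the other cadherins 3 of 8 compared were lower in P10 than in P5 and 1 was higher. The shares over all genes were 8.48% and 7.57%. CDH3, the placental cadherin and the gene next to CDH1 on the Sscrofa11.1 assembly in RefSeq, was at an FPKM of 0.394 in PEF, 12.1 in P5 and 2.31 in P10. CDH19, listed at 0 in PEF, was at 2.69 in P5 and 0.0503 in P10. CDH11, a mesenchymal cadherin, was at 423, 67.7 and 29.3. CDH3 shared the order of CDH1, highest in P5, while CDH11 was highest in the fibroblasts. CDH2, the N-cadherin often exchanged for E-cadherin, was listed at 0 in all 3 groups. Whether an exact 0 stands for no reads or for a failed estimate was not given in the sources used here. The count of lower cadherins was 0 with a limit of 2, and it was 1 among genes with a mean FPKM of 5 or more.

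Of the tight junction genes, 5 of 16 compared were lower in P10 than in P5 and 0 were higher, with a median difference of -0.64. Over all genes, 8.48% were lower and 7.57% higher. OCLN, the strand protein occludin, was listed at 0 in PEF and was at an FPKM of 14.4 in P5 and 3.12 in P10. CLDN6, a claudin of embryonic epithelia, was at 13.2 in PEF, 48.6 in P5 and 15.6 in P10, back near the fibroblast level. CLDN10 was at 0.0276, 4.70 and 0.0301. F11R, a junctional adhesion molecule, was also lower, with a difference of -1.11. TJP1, the scaffold ZO-1, was at 31.2, 40.7 and 57.8, and its difference of 0.50 was not counted. The count of lower genes ran from 1 to 8 over the alternatives, and OCLN, CLDN6 and F11R each share a locus with another ID. CLDN7, the claudin that binds EPCAM, was listed at 0 throughout, and no ID named CLDN3 is analysed here.

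SPINT2 belongs with a protease system at the epithelial surface. ST14, the membrane protease matriptase, was at an FPKM of 0.0421 in PEF, 21.6 in P5 and 3.46 in P10. SPINT1, the other Kunitz-type inhibitor of matriptase, was at 0.163, 9.08 and 1.36. The P10 level was 16.0% of the P5 level for ST14 and 14.9% for SPINT1, values like those of CDH1 and EPCAM. The level of SPINT1 relative to ST14 was 0.421 in P5 and 0.392 in P10, whereas that of SPINT2 was 1.76 in P5 and 0.155 in P10. In P5 SPINT2 was thus the more abundant inhibitor per length, and in P10 SPINT1 had the higher value. The P10 order rests on 1 value per gene with SPINT2 under an FPKM of 1, so it cannot be judged. TMPRSS2, another membrane serine protease, was listed at 0 in PEF and was at 9.93 in P5 and 0.714 in P10.

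F2RL1, the protease-activated receptor PAR2, which matriptase can activate, went another way, with an FPKM of 0.118 in PEF, 8.65 in P5 and 12.97 in P10. Its P10 minus P5 difference of 0.53 was not counted. In all, 3 of the 7 compared genes of the protease list were lower in P10 than in P5 and 0 were higher. The shares over all genes were 8.48% and 7.57%. PRSS8, a further protease of this system, is not analysed here. HGF, whose activation by proteases these inhibitors restrain, and its receptor gene MET were at 6.70 and 8.59 in PEF and under 0.4 in both piPSC groups.

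Of 10 compared genes for partners and cleavage of EPCAM, 2 were lower in P10 than in P5, against 8.48% of all genes. Among them was CD9, a tetraspanin, at an FPKM of 11.9 in PEF, 19.9 in P5 and 7.85 in P10. The cleaving enzymes had no gene counted between the piPSC groups: ADAM17, a surface sheddase, was at 22.4, 16.5 and 22.3, at a locus shared by 2 IDs. Among 9 further epithelial genes compared, 4 were lower in P10 and 0 higher, with a median of -0.82. Over all genes, 8.48% were lower and 7.57% higher. The lower epithelial genes were S100A14, ERBB3, AP1M2 and LSR. S100A14, a calcium-binding protein of epithelia, was at 3.72, 24.9 and 3.39. The differences of ERBB3, AP1M2 and LSR were -1.93, -1.82 and -1.54. ERBB3 lies at a locus shared by 8 IDs.

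**Figure D3:**
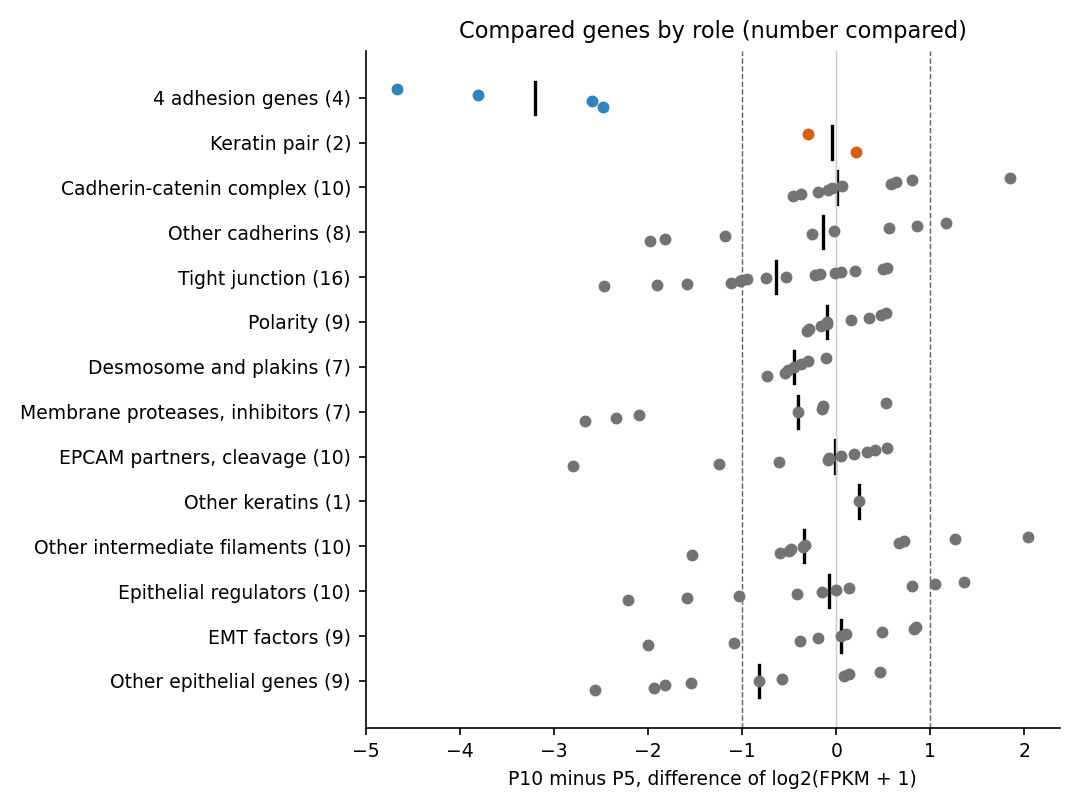
P10 minus P5 differences of log2(FPKM + 1) for the 4 adhesion and surface genes, the keratin pair and the compared genes of 12 lists by role, 1 point per gene, with the number compared in brackets; black bars are medians and dashed lines mark -1 and 1. Desmosome and polarity genes all lie between the dashed lines, and protease, tight junction and other epithelial genes reach below -1.

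Keratin filaments meet the cell surface at desmosomes. Of 7 compared desmosome and plakin genes, 5 were higher and 1 lower in P5 than in PEF, against 21.4% and 19.6% of all genes. The lower gene was DSC2, with a difference of -1.63 and an FPKM of 54.9 in the fibroblasts against 17.0 in P5. From this list 0 were counted in P10 minus P5, with a median there of -0.44. DSP, desmoplakin, which ties keratin filaments to desmosomes, was at an FPKM of 0.470 in PEF, 39.9 in P5 and 30.6 in P10. DSG2, a desmosomal cadherin of simple epithelia, was at 3.91, 41.6 and 28.2, and PKP2, a plakophilin, at 3.43, 15.3 and 8.77. In P5 the FPKM of DSP and DSG2 lay in the range of CDH1, EPCAM, CLDN4 and SPINT2, and in P10 it lay above all 4. DSP and DSG2 each share a locus with another ID. With a pseudocount of 0.1, 1 gene of this list was counted as lower in P10. None of the 9 compared polarity genes was counted between the piPSC groups. With 8.48% of all genes lower and 7.57% higher, counts of 0 in lists of this size, as for the lower cadherin and catenin genes, are near the background.

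Among the other keratins 16 of 30 listed had a row, and KRT10 alone reached an FPKM of 1, at 0.334 in PEF, 1.57 in P5 and 2.05 in P10. KRT20 and KRT23, other keratins of simple epithelia, were at most 0.0982 in any group, and KRT7 and KRT19 are not analysed here. Among keratins with a row the message was thus almost wholly that of KRT8 and KRT18, next to each other on chromosome 5 with 54125 bases between them. Their outer neighbours did not share the pattern. KRT79 stayed under 0.03, and the ID on the far side of KRT18, which has no symbol, was at 290 in PEF, 390 in P5 and 382 in P10.

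None of the nearest IDs beside the adhesion members on susScr3 was counted as lower in P10 than in P5, against 8.48% of all genes. ELN, METTL27 and the IDs beside EPCAM were under an FPKM of 1 in P5. On the log2(FPKM + 1) scale they could therefore not be counted as lower. ELN, the elastin gene on the higher-coordinate side of CLDN4, was at an FPKM of 35.0 in PEF, 0.0947 in P5 and 0.139 in P10, whereas METTL27, 834 bases away on the other side, was at 0.0891, 0.666 and 0.191. YIF1B, beside SPINT2 at a locus shared with another ID, was at 2.83, 2.83 and 1.86. The ID on the other side of SPINT2, with no symbol, was at 9.86, 13.3 and 36.2, highest in P10 where SPINT2 was lowest. The nearest IDs on either side of EPCAM, also without symbols, stayed under 0.4. The ID on the lower-coordinate side shares its locus with another ID. CDH1 was the only ID on its scaffold. CDH3, next to CDH1 on Sscrofa11.1, was lower in P10 than in P5, with a difference of -1.98.

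VIM, the vimentin of mesenchymal filaments, was at an FPKM of 5403 in PEF, 589 in P5 and 969 in P10. The keratin sum was 0.00172 of the VIM level in the fibroblasts, 2.34 times it in P5 and 1.38 times it in P10. Keratin message per length thus exceeded that of vimentin in both piPSC groups. Among the 10 other intermediate filament genes compared, 2 were higher in P10 than in P5, INA and PRPH, which encode the neuronal proteins internexin and peripherin, and 1 was lower, NEFL, a neurofilament gene. Over all genes, 7.57% were higher and 8.48% lower. INA was at 0.951, 7.61 and 34.4, PRPH at 0.268, 15.5 and 38.7, and NEFL at 0.467, 14.4 and 4.32. NES, the nestin of neural progenitors, was at 27.8, 16.7 and 27.2 and was not counted there. DES, the desmin of muscle, was at 727 in the fibroblasts and at 6.67 and 4.51 in the piPSC groups.

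**Figure D4:**
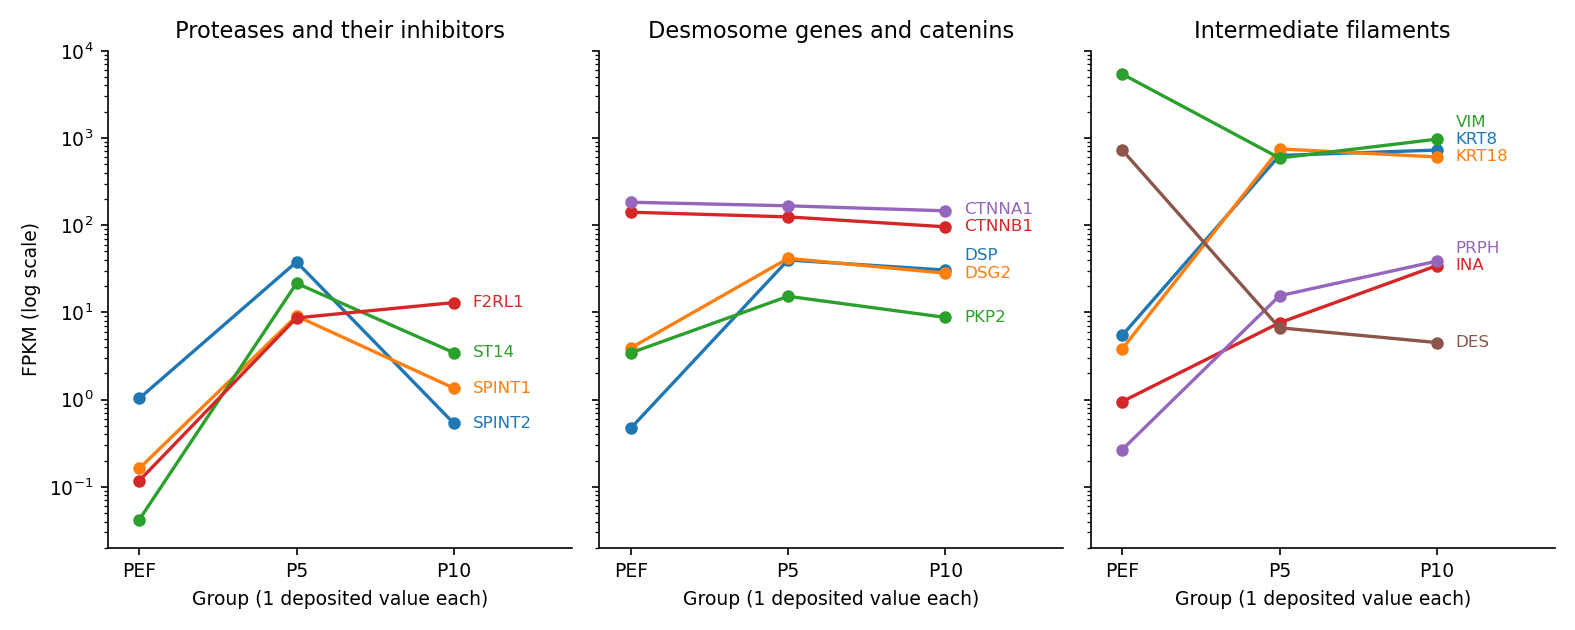
FPKM (log scale) in PEF, P5 and P10, 1 deposited value per group, of SPINT2 with protease genes (left), of desmosome genes with catenins (middle) and of KRT8 and KRT18 with other intermediate filament genes (right). SPINT2, SPINT1 and ST14 peak in P5, DSP and DSG2 stay at 28.2 to 41.6 in both piPSC groups, and VIM remains at 589 or more.

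Regulators of the epithelial state went both ways between the piPSC groups: of 10 compared, 3 were lower in P10 and 2 higher. The shares over all genes were 8.48% and 7.57%. RBM47, an RNA-binding protein, was at an FPKM of 0.157 in PEF, 6.41 in P5 and 0.595 in P10. ESRP1, which directs epithelial splicing, was at 0.0979, 6.62 and 1.53. GRHL2, a transcription factor that in the mouse binds the genes of E-cadherin and claudin 4, reached only 1.27 in P5 and was at 0.109 in P10. OVOL1, another epithelial transcription factor, was at 0.164, 1.86 and 1.15. The higher genes were TFAP2A, at 4.61, 1.26 and 3.68, and KLF4, a reprogramming factor that in human mammary cells activates CDH1, at 11.6, 116 and 299. KLF4 was highest in P10, where CDH1 was at 16.2% of its P5 level. Whether KLF4 acts on CDH1 in these cells was not tested. Whether introduced copies add to KLF4 was not tested.

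Transcription factors of the opposite, mesenchymal state were compared for 9 genes. Of these, 4 were lower and 1 higher in P5 than in PEF, with the same counts in P10 minus PEF. Of all genes, 19.6% were lower and 21.4% higher in P5, and 19.3% and 19.1% in P10. ZEB1, a repressor of CDH1, was at an FPKM of 81.8 in PEF, 16.4 in P5 and 30.1 in P10. Its P10 minus P5 difference of 0.84 was not counted. In P10 minus P5, 2 of the 9 were lower, against 8.48% of all genes. Among the 2 was TWIST2, at 10.9, 4.08 and 0.267. With a pseudocount of 5 the count of lower genes was 0. SNAI1, SNAI2, ZEB2 and TWIST1 are not analysed here.

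The genes most like each pattern were found by the Euclidean distance of the 3 centred log2(FPKM + 1) values, over the 6959 genes that had a symbol and reached an FPKM of 5. Nearest to the mean of the adhesion genes were DRD2, DIRAS3, ST14, TFAP2D and PDZD4, at distances of 0.70 to 0.86. ST14 was the gene among them that also stood on a list fixed for the members' roles. From this mean the members lay at 0.32 for CLDN4, 0.72 for EPCAM, 1.02 for CDH1 and 1.43 for SPINT2. CDH1 and SPINT2 thus lay farther from it than the 5 nearest genes did. Nearest to the keratin pair were BEX1, LIN28A, BEX4, CHGA and SNORA52, at 0.61 to 0.78. CHGA, which encodes the secretory granule protein chromogranin A, was at an FPKM of 0.180 in PEF, 81.9 in P5 and 67.5 in P10. The likeness rests on 3 values per gene. With a pseudocount of 5 in place of 1, 2 of the 5 nearest remained for the adhesion genes and 3 for the keratins.

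Markers of other cell types were compared as well, with 8.48% of all genes lower and 7.57% higher in P10 than in P5. Of 12 neural markers compared, 8 were higher in P10 than in P5 and 0 lower, their summed FPKM going from 109 in PEF to 516 in P5 and 1288 in P10, with none at 0. Of 14 fibroblast markers 4 were lower and 1 higher in P10 than in P5, with a median difference of -0.10. Their sums were 5344, 159 and 79.7, and COL3A1 alone accounted for 87.9 of the sum in P5 and 3.11 in P10. Of 5 endothelial markers 3 were lower in P10, with sums of 6.48, 24.3 and 7.19. Trophectoderm, whose cells also carry keratins 8 and 18, had a summed marker FPKM of 24.2, 31.0 and 32.5 over 8 genes. CDX2 was at 0.526 in P5 and listed at 0 in PEF and P10. Of 5 trophectoderm markers compared, 2 were higher and 2 lower in P5 than in PEF, against 21.4% and 19.6% of all genes. In P10 minus P5, 1 of them was higher and 0 lower. The trophectoderm sum thus joins genes that went opposite ways. The pluripotency markers summed to 2.77, 512 and 294 over 5 genes, with 1 of 4 compared, DNMT3B, lower in P10. LIN28A alone accounted for 299 of that sum in P5 and 204 in P10. Endoderm and immune markers had 2 genes compared each and sums of at most 5.06 and 4.44. The part of these cell types in the differences of the adhesion genes was not tested.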

How the data were processed

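Per the labels' protocols, RNA came from RNeasy columns and libraries from a NEBNext Ultra kit. The submitters' processing notes name TopHat2 2.0.9, Bowtie2 2.0.6 and the build susScr3. The authors deposited FPKM, per the file headers, in 1 column per group. Which program and annotation gave these values, and how a group's 2 libraries became 1 value, were not given in the sources used here. Symbols from a gene name table matched 11804 of 25322 IDs (46.6%).

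From these, differences of log2(FPKM + 1) were computed from the deposited values over the 13998 IDs reaching an FPKM of 1 in any group (Python 3.11.15, pandas 2.3.3). A difference of at least 1 was counted. The planned limma test needed values per library and was replaced by this description. The counting was run on scaled copies of the PEF column with known changes put into some genes. These copies had no noise and the changes were larger than the limit. The run therefore checks the code and says nothing on how reliable the counts are.

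The members, and the 12 lists by role and 7 lists of markers, were chosen with earlier results of these data known. Named genes are the members, partners set in a list, up to 3 counted genes per role list with the largest P10 minus P5 differences, the 5 nearest in pattern, and chromosomal neighbours. F2RL1, F11R, TFAP2A, LSR, HGF, MET, DSG2, DSC2, ADAM17, KRT10, KRT20, KRT23, DES, CDX2, COL3A1 and DNMT3B were named after their values were seen. A few results under this rule are not reported here. Promoter motifs were not analysed here.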

Additional observations from a re-analysis of the deposited data

How the results depend on the processing

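No paired analysis was possible because the table holds 1 value per group, and for the same reason no library could be left out. In every pseudocount, scaling and threshold tried, the 4 adhesion and surface genes were lower in P10 than in P5 and the keratins were not counted. The lowest and highest differences were -2.65 and -2.06 for CDH1, -2.76 and -2.07 for EPCAM, -4.33 and -2.66 for CLDN4, -5.90 and -2.96 for SPINT2, 0.04 and 0.27 for KRT8, and -0.47 and -0.24 for KRT18. CLDN4 in P10 minus PEF, 1.21, was under the limit with a limit of 2, with a pseudocount of 5 and under quantile normalization. The gap between adhesion genes and keratins in P5 minus PEF was -0.47 with a pseudocount of 0.1, as low values in PEF count for more. Scaling to the same sum without mitochondrial genes moved the median of all genes by 0.36 in P5 minus PEF, 0.22 in P10 minus PEF and -0.13 in P10 minus P5.

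Genes differing either way numbered 5734 in P5 minus PEF, 5383 in P10 minus PEF and 2247 in P10 minus P5. A pseudocount of 5 gave 3242, 3011 and 878, and a limit of 2 gave 2042, 2031 and 374. A mean FPKM of at least 5, which leaves fewer genes, gave 3495 in P10 minus PEF and 1366 in P10 minus P5, and a pseudocount of 0.1 gave 3418 in P10 minus P5. With a pseudocount of 5, 2 of the 5 genes nearest the adhesion pattern and 3 of the 5 nearest the keratin pattern remained. Leaving out IDs listed at 0 or sharing a locus was added after seeing the data; without shared loci, 1 tight junction gene was lower in P10. Counts of lower genes in P10 minus P5 ran over all alternatives from 1 to 4 for the protease list, 1 to 6 for other epithelial genes, 0 to 3 for regulators and 0 to 1 for desmosome genes. The unknown depth limits the values under an FPKM of 1.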

Other observations

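The gene ID that the name table calls CLDN9 (chromosome 3, 10715625 to 10716249 on susScr3) lies near CLDN4, with METTL27 between them, and was counted among the tight junction genes. RefSeq lists CLDN3 next to CLDN4 on the Sscrofa11.1 assembly, and which claudin this ID holds was not tested. It was listed at 0 in PEF and had an FPKM of 19.3 in P5 and 11.2 in P10. Its P10 minus P5 difference on the log2(FPKM + 1) scale, -0.74, was not counted, while that of CLDN4 was -3.80.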
